A study of Mus musculus with 57 samples.

Results

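The 14 most mitotic and the 14 least mitotic cells were compared within 1 population of mouse T helper 2 (Th2) cells, the CD4+ T cells that make interleukin-4 and take part in allergy and in defence against worms. The series holds 56 single-cell libraries and 1 pool of 10000 cells. Of the 56 cells, 54 were ranked, and 28 of them form the groups described here. Cells T3_2 and T3_5 were left out of the ranking. The groups were selected on measured values: each cell received a mitotic score, the mean of log2(TPM + 1) over 10 genes of mitosis (Mki67, Top2a, Ccnb1, Ccnb2, Cdc20, Plk1, Aurka, Birc5, Tpx2 and Cenpf). TPM sets each transcript's abundance relative to its length and to the same total in every cell, so levels can be set side by side between genes. The 14 cells of highest score are called high-scoring below, the 14 of lowest score low-scoring, and 26 cells lay between.

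Both groups share every label. The cells were wild type, of strain C57BL/6 and 8 weeks of age, and began as CD4+ T cells from spleen. They were activated through CD3 and CD28, received anti-IFNγ and IL-4 to set the Th2 fate and IL-2 after 2 days, were grown for 5 days in all, and were then restimulated with both antibodies before capture with a Fluidigm C1 microfluidic system, which takes cells up 1 at a time. The labels do not tie cells to animals or cultures, and all cells count as 1 sample. No test was therefore run between them, SDs are over cells, and a gene was called by size: a difference of at least 2 between the group means of log2(TPM + 1). Such a difference understates the change of genes at low levels.

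T cells divide rapidly after their receptor is engaged. A dividing cell first copies its DNA, then condenses its chromosomes, attaches them to a spindle of microtubules through the kinetochores and separates them, while the anaphase promoting complex marks cyclins and other proteins for destruction. Transcripts of many of these mitotic genes are made late in the cycle, in G2 and mitosis, and their promoters often carry a CCAAT box and a cell cycle homology region (CHR), the element bound by the MuvB complexes.

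The score ran from 4.37 to 6.88 in the high-scoring cells (median 5.68), from 0.53 to 3.81 in the cells between and from 0 to 0.46 in the low-scoring cells. The last cell inside the upper group was T4_8 at 4.37, and T5_10, at 3.81, was the first outside it. At the lower edge, T5_3 (0.46) was inside and T2_4 (0.53) outside. Of the low-scoring cells, 9 had a score of exactly 0, with none of the 10 genes detected at 1 TPM or more.

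**Figure D1:**
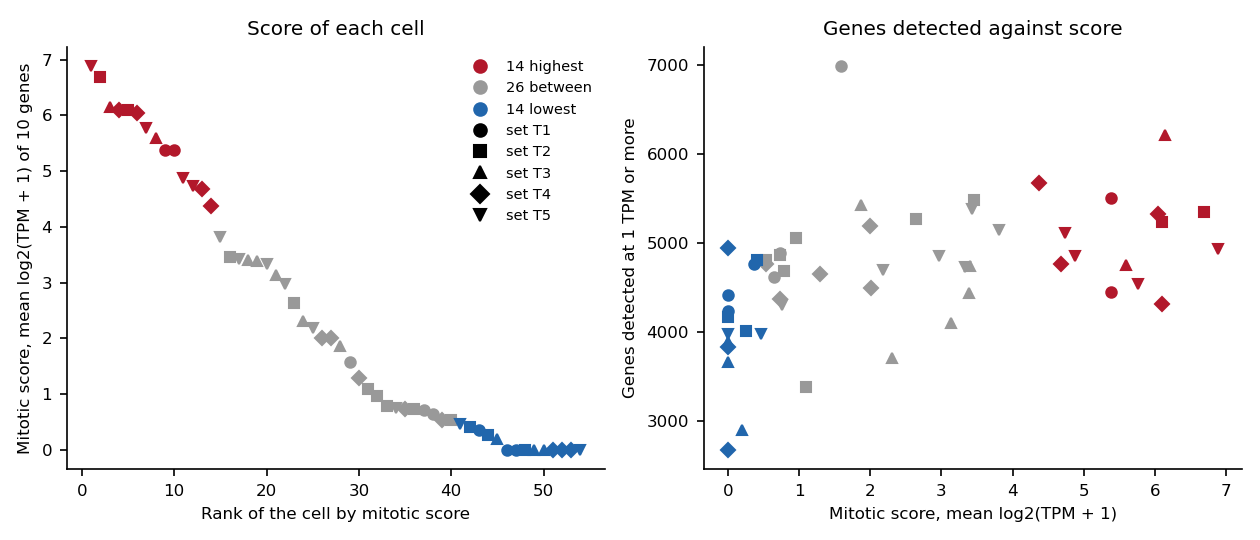
Left, mitotic score (mean log2(TPM + 1) of 10 genes) of each of 54 cells by rank; right, genes detected at 1 TPM or more against the score. Colour gives the group and symbol the set, T1 to T5. The scores fall without a break at the lower edge, where 9 cells lie at 0, and the low-scoring cells reach down to 2679 genes detected.

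The 10 score genes chose the cells, so their values only describe the groups. Top2a, the topoisomerase that untangles sister chromatids, ranged from 139 to 1029 TPM in the high-scoring cells (median 304.5) and from 0 to 16 TPM in the low-scoring cells (median 0). Ccnb1, the cyclin that activates CDK1 at mitotic entry, ranged from 7 to 619 TPM (median 173.5) and was listed at 0 in all 14 low-scoring cells. A further 6 score genes were also listed at 0 in every low-scoring cell: Ccnb2, Cdc20, Plk1, Aurka, Birc5 and Tpx2. Within the upper group the genes were uneven. Plk1, a kinase of centrosomes and kinetochores, was detected in 9 of 14 cells (median 14 TPM) and Cdc20, an activator of the anaphase promoting complex, in 11 (median 15.5 TPM). The proliferation antigen Mki67 was detected in 13 high-scoring cells (median 55.5 TPM) and in 2 low-scoring cells, at no more than 5 TPM.

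The groups also differed in how many genes were detected. High-scoring cells had 4317 to 6212 genes at 1 TPM or more (median 5023, SD 520) and low-scoring cells 2679 to 4939 (median 3995.5, SD 649). Over the 54 cells, genes detected and the score had a Spearman rho of 0.55 and a Pearson r of 0.46, given as a description. Sequencing depth is not kept in TPM, and less RNA per cell cannot be told apart from a lower yield of the library. Sets T1 to T5, named in the sample titles with no meaning given, held 2, 2, 2, 4 and 4 high-scoring and 3, 3, 3, 3 and 2 low-scoring cells. The labelled cell type was checked on its markers. Cd3d, Cd3e and Cd2 of the T cell surface and the Th2 master regulator Gata3 were detected in 14 of 14 cells of each group, and Cd4 in 11 high-scoring and 8 low-scoring cells. Cd4 had medians of 25 and 11.5 TPM. Of the markers of other cell types, Cd74 was detected in 9 high-scoring and 5 low-scoring cells, at up to 672 TPM, Nkg7 in 7 and 6, Gzma in 3 and 3, Cpa3 in 1 and 2 and Alas2 in 1 and 1. Hdc and Cd8b1 were listed at 0 in both groups. The table analysed here held only 1 of 9 B cell markers, 3 of 10 CD8 T and NK cell markers and none of 10 myeloid markers. It held 2 of 7 mast cell and basophil and 1 of 8 erythroid and platelet markers, so this check was limited. Cd74, the 1 B cell marker, ran from 0 to 173 TPM in high-scoring and 0 to 672 TPM in low-scoring cells. The sum of the CD8 T and NK cell markers, all from Nkg7 and Gzma, ran from 0 to 1078 and 0 to 5592 TPM.

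Differences between the groups were mostly upward, and the mitotic genes led them. Of 7632 genes compared (detected in at least 10 of 54 cells, score genes left out), 667 were higher by 2 or more in the high-scoring cells (8.74%) and 23 were lower (0.301%). The filter counts the high-scoring cells too, so a gene seen in few other cells could pass through them. For such genes, zeros in the low-scoring group are partly set by the filter. The median over all compared genes was itself 0.50 higher, and differences are best read against that shift. Relative to it, 313 genes were higher and 97 lower. With genes detected and set as covariates, the median was -0.02, and 555 genes were higher and 579 lower. With genes detected alone as covariate, 482 were higher and 495 lower. Among the 7 high-scoring and 4 low-scoring cells that share a range of 4317 to 4939 genes detected, 695 were higher and 794 lower. With set alone as covariate, 725 were higher and 26 lower. The part of genes detected in the excess of higher genes was not tested. Past 2 in the same direction with and without both covariates were 315 genes higher (4.13%) and 13 lower (0.17%). These are called higher or lower in both fits below. Of the 315, 65 were in the mitosis lists described below and 250 were not.

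**Figure D2:**
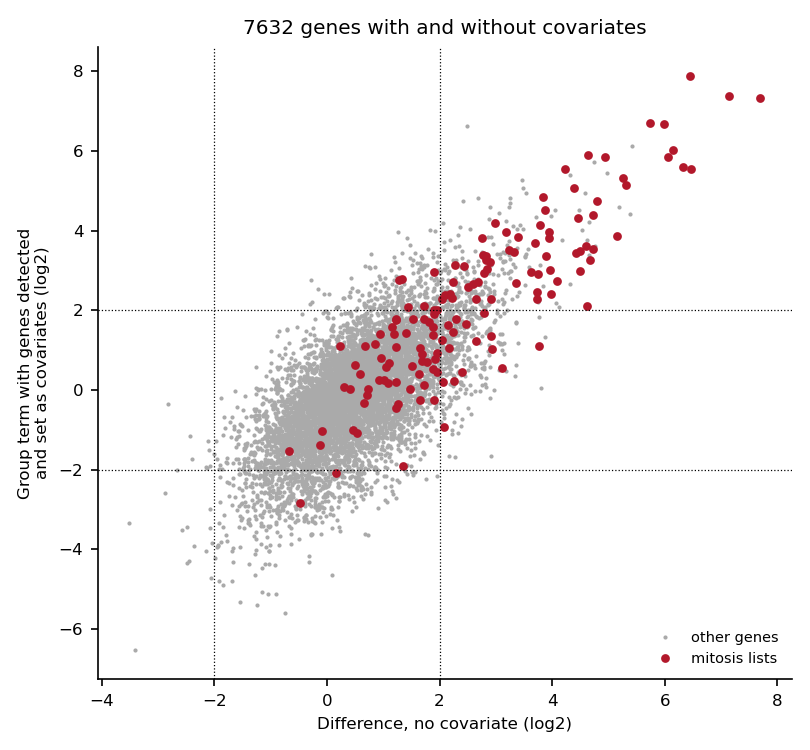
Each point is 1 of 7632 genes: the difference of mean log2(TPM + 1), high-scoring minus low-scoring cells (x), against the group term with genes detected and set as covariates (y). Red points are the 142 compared genes of the 5 mitosis lists and dotted lines mark 2 and -2. Past 2 on both axes lie 65 of the 142 mitosis genes and 250 other genes, and Ube2c is furthest to the right, at 7.70 without and 7.34 with covariates.

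Only 3 genes (0.0393% of those compared) had every high-scoring cell above every low-scoring cell: Prc1, Cdca8 and Hmmr. Prc1, which bundles the microtubules of the spindle midzone, ranged from 1 to 510 TPM in the high-scoring cells (median 261) and was listed at 0 in all 14 low-scoring cells. Its group means differed by 7.14 on the log2 scale, or 7.40 with covariates. Cdca8, known as borealin and part of the chromosomal passenger complex, ranged from 7 to 738 TPM (median 88.5) against 0 to 2 TPM, a difference of 6.47 (5.55 with covariates). Hmmr, a microtubule-binding protein of the spindle poles, ranged from 5 to 262 TPM (median 93) and was listed at 0 in every low-scoring cell, a difference of 6.05 (5.84 with covariates). For Prc1 the lowest high-scoring cell held 1 TPM, so the separation was narrow at that cell.

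The largest difference belonged to Ube2c, the ubiquitin-conjugating enzyme of the anaphase promoting complex. It ranged from 212 to 3105 TPM in the high-scoring cells (median 745.5) and from 0 to 387 TPM in the low-scoring cells (median 1), and 13 of 14 high-scoring cells lay above every low-scoring cell. The mean of log2(TPM + 1) was 9.68 (SD 0.96) against 1.97 (SD 3.02), a difference of 7.70 (7.34 with covariates). Cenpa, the histone variant that marks centromeres, ranged from 2 to 1080 TPM (median 135) against 0 to 85 TPM (median 0), and the groups overlapped. Its difference was 6.44, and 7.89 with covariates, the largest of all genes in that fit. Cdk1, the kinase that drives mitotic entry, ranged from 5 to 548 TPM (median 163.5) against 43 TPM in 1 low-scoring cell and 0 in the other 13, a difference of 6.33 (5.60 with covariates).

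**Figure D3:**
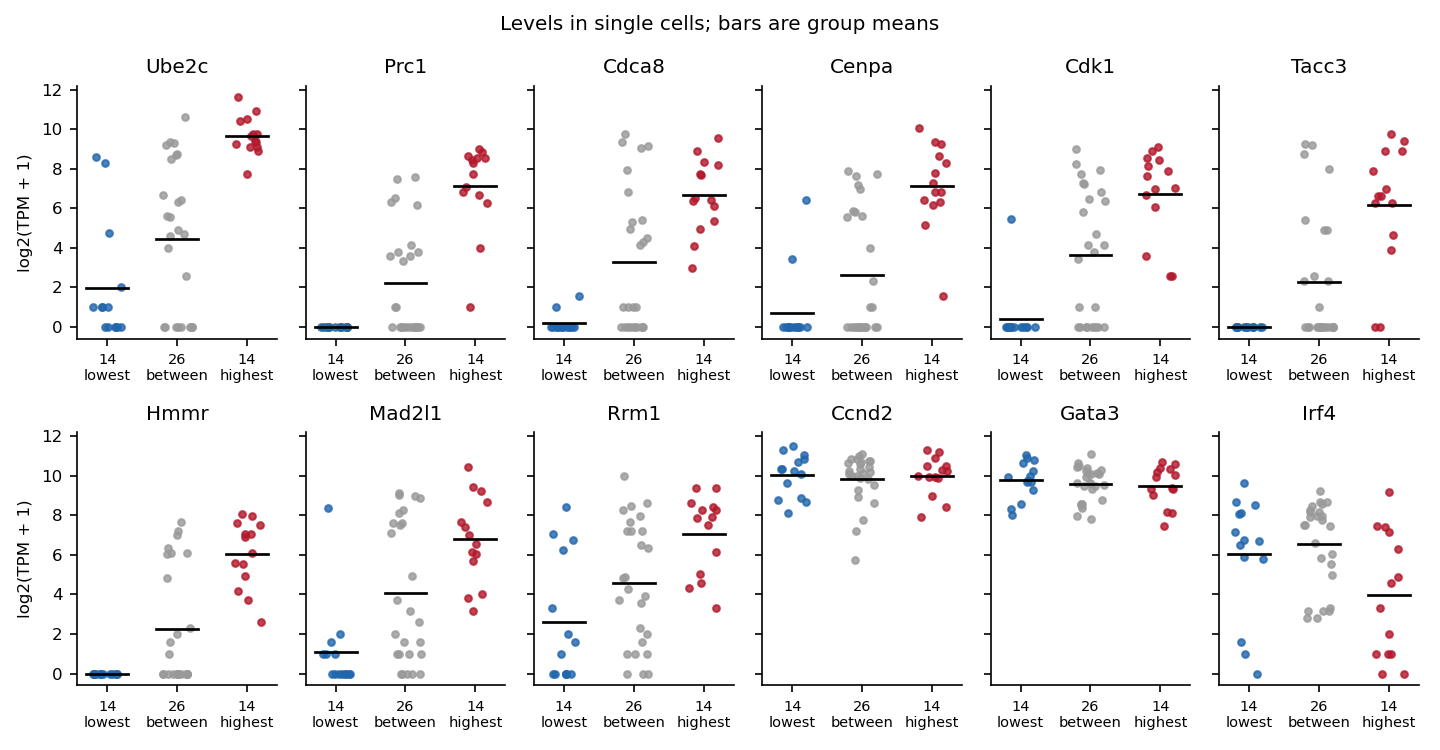
Level, log2(TPM + 1), of 12 genes in each single cell (points) of the 14 low-scoring cells, the 26 between and the 14 high-scoring cells; bars are group means. Prc1, Cdca8 and Hmmr separate the outer groups completely, Ube2c nearly so, and Ccnd2 and Gata3 sit at like levels in all 3 groups.

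These 6 genes are among the 15 with the largest differences of those higher in both fits. Of the other 9, Tacc3, which stabilises spindle microtubules, was listed at 0 in every low-scoring cell and detected in 12 high-scoring cells (median 96.5 TPM), a difference of 6.15. Cenpe, the kinesin that moves chromosomes to the spindle equator, ranged from 3 to 520 TPM against 0 to 67 TPM (5.99). The checkpoint protein Mad2l1 ranged from 8 to 1404 TPM against 0 to 325 TPM (5.73). The genes Fam33a (now Ska2, of the outer kinetochore, 5.31) and Ckap2l (a spindle protein, 5.27) were each detected in 13 high-scoring cells, in 4 and 1 low-scoring cells. Smc2, the core of condensin, ranged from 37 to 531 TPM (median 178) against 0 to 86 TPM (median 0.5), and 12 high-scoring cells lay above every low-scoring cell (5.15). The last 3 act at the replication fork or behind it. Rfc4 of the clamp loader had medians of 60 and 0 TPM (5.41), the PCNA-binding factor 2810417H13Rik (now Pclaf) 179.5 and 0 TPM (5.18), and the histone chaperone Asf1b 293 and 0 TPM (5.38). For Asf1b the highest single value, 871 TPM, was in a low-scoring cell.

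Promoter sequence was examined because so many of these genes moved together. Promoters of 300 bases (250 before to 50 after the start) from RefSeq, build GRCm38.p6, were searched on both strands for CCAAT and for the CHR, taken as TTTGAA or TTCGAA. The motifs can share at most 1 base. Shares are of genes, and a gene counts if any of its promoters matched. Of all 27025 genes with a promoter, 41.1% held CCAAT and 21.7% the CHR. Of the 15 genes, 5 held both motifs within the last 110 bases before the start; those stretches are shown 5′ to 3′ on the gene's strand because they put both motifs in view. Capitals mark CCAAT (or its complement ATTGG) and the CHR (TTTGAA or its complement TTCAAA).
Ube2c, chr2:164769819-164769928, plus strand: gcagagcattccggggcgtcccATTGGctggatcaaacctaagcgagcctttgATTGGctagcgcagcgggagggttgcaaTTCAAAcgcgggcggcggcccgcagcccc
Prc1, chr7:80294366-80294475, plus strand: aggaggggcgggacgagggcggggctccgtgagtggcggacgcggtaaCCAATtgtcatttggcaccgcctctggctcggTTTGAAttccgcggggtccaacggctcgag
Cdk1, chr10:69352913-69353022, minus strand: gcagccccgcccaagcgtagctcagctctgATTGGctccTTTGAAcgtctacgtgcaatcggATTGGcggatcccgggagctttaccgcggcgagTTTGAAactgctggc
Asf1b, chr8:83955584-83955693, plus strand: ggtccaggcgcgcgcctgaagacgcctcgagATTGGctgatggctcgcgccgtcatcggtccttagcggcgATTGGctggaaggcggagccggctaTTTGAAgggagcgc
Ckap2l, chr2:129297213-129297322, minus strand: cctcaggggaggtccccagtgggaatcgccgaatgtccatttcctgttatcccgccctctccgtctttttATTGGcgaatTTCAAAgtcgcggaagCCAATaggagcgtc

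In 4 of these stretches a CCAAT box began 25 to 33 bases before a CHR: 28 bases in Ube2c, 32 in Prc1, 33 in Cdk1 and 25 in Asf1b. In Ckap2l the nearest pair was 10 bases apart. Both motifs were found in 1 promoter for 9 of the 15 genes with the largest differences. Among genes matched to a promoter, they were in 60.4% of the 53 mitosis-list genes higher in both fits. The share was 28.1% of the 64 mitosis-list genes that were not. For genes higher in both fits but outside the mitosis lists the share was 10.5% of 200 genes. All compared genes had 7.12% (of 6070 matched genes), and all genes with a promoter 8.61%. A CCAAT box that began 25 to 40 bases before a CHR was an arrangement chosen after the sequences were seen. It was in 22.6% of the 53 mitosis-list genes higher in both fits and 0.824% of the compared genes. A match describes the letters in the window and is not evidence of a bound site.

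The mitosis genes were then taken by role, in 5 lists that exclude the score genes. The median difference over the 142 members compared (of 154 in the table) was 2.24, with 138 above 0, and 65 were higher in both fits, against 4.13% of all genes. None was lower by 2 or more, but only 0.301% of all genes were, so that count does not set the lists apart. Each list's count below can be set against the 4.13% of all genes that were higher in both fits. Some of the 65 passed the filter of 10 cells only with the high-scoring cells counted. Among them were Kif18a, Fam64a, Cenpp and Spag5, all listed at 0 in every low-scoring cell, and others named below. For such genes the difference is partly set by the filter. The lists were assembled with the score known, and mitotic genes vary together, so these counts describe the groups and are no independent support for them. Per cell, 88 to 127 of the 142 genes were detected in the high-scoring group (median 103) and 27 to 64 in the low-scoring group (median 43). The groups did not overlap in this number. Summed, the 142 genes took 9323 to 23036 TPM in the high-scoring cells (median 17449) and 2938 to 8777 TPM in the low-scoring cells (median 4986.5), again without overlap, and 4081 to 24199 TPM in the cells between. Among the cells that share a range of genes detected, the median difference was 1.92.

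**Figure D4:**
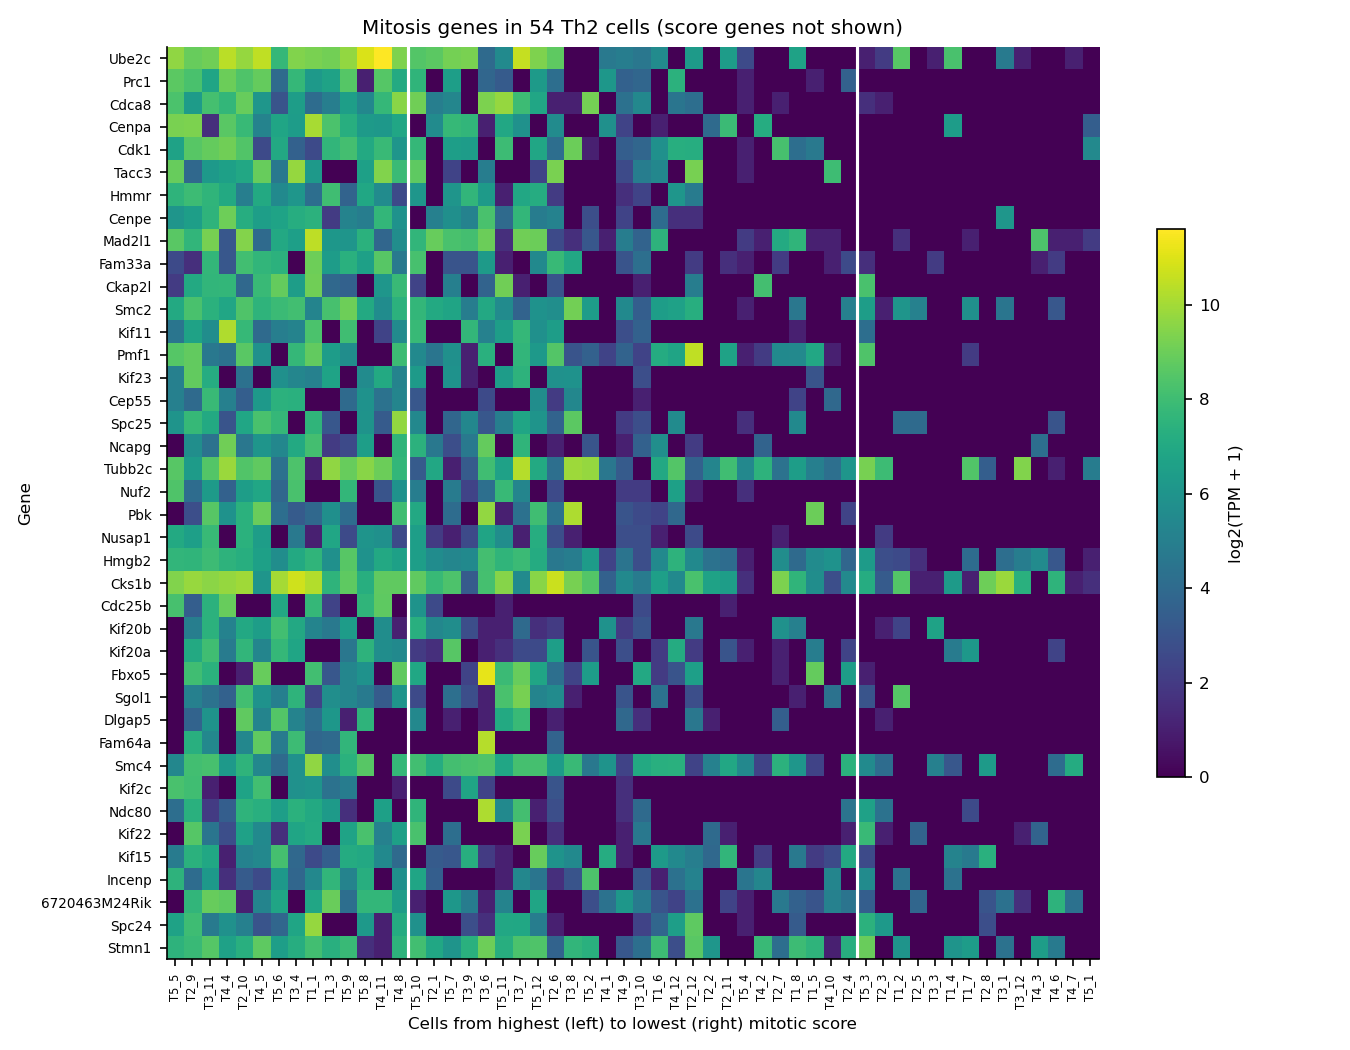
Level, log2(TPM + 1), of the 40 mitosis-list genes with the largest differences among those higher in both fits (rows) in 54 cells (columns) ordered by mitotic score; white lines bound the 14 high-scoring cells on the left and the 14 low-scoring cells on the right. Most rows are bright on the left, patchy between and dark on the right, while Cks1b and Smc4 are also detected in many low-scoring cells.

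Kinesins, spindle and cytokinesis genes differed most as a list. Of 36 members compared, 28 were higher in both fits, and the median difference was 3.69 (3.06 with covariates). The motor Kif11, which pushes spindle poles apart, was detected in 12 high-scoring cells (median 40.5 TPM) and 1 low-scoring cell, a difference of 4.94. Kif23, a midzone motor of cytokinesis, Cep55, which organises abscission, and the kinetochore protein Nuf2 were each listed at 0 in all low-scoring cells, with medians of 37.5, 32 and 37.5 TPM in the high-scoring group. Kif2c, a microtubule depolymerase of centromeres, was also at 0 in the low-scoring group and was detected in 10 high-scoring cells (3.88). Kif23, Cep55 and Kif2c passed the filter of 10 cells only with the high-scoring cells counted. Genes also used outside mitosis were detected in both groups: the importin Kpna2 ranged from 72 to 522 TPM (median 278.5) against 0 to 220 TPM (median 47), and the tubulin Tuba1c had medians of 337 and 55.5 TPM. Stmn1, which destabilises microtubules, had medians of 169.5 and 10 TPM, and the highest value, 494 TPM, was in a low-scoring cell. Tubulins and some chromatin proteins have near-identical gene copies, so their levels are less certain.

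Among centromere, kinetochore and passenger complex genes, 17 of 32 were higher in both fits (median difference 2.58, or 2.31 with covariates). Summed, the list took 609 to 4748 TPM in the high-scoring cells and 1 to 908 TPM in the low-scoring cells, with slight overlap. With Nuf2 of the spindle list, the 4 subunits of the NDC80 complex, which binds microtubule ends, were all higher in both fits: Spc25 by 4.67, Nuf2 by 4.60, Ndc80 by 3.84 and Spc24 by 3.69. Pmf1, of the Mis12 complex, had medians of 70.5 and 0 TPM but 336 TPM in 1 low-scoring cell, T5_3, the cell at the upper edge of its group. Incenp, the scaffold of the passenger complex, differed by 3.73 and was detected in 13 and 3 cells.

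Cyclins, kinases and their activators were less uniform. Of 21 compared, 8 were higher in both fits (median difference 2.17, or 1.77 with covariates). The phosphatase Cdc25b, which activates CDK1, was detected in 9 high-scoring cells and listed at 0 in every low-scoring cell (4.38). The kinases Pbk (4.50) and Aurkb (3.40, the kinase of the passenger complex) were likewise at 0 in the low-scoring group. Cdc25b and Aurkb passed the filter of 10 cells only with the high-scoring cells counted, so these zeros are partly set by it. Cks1b, a CDK-binding subunit, was abundant in the high-scoring cells and uneven in the low-scoring cells. It ranged from 66 to 1726 TPM (median 719.5) against 0 to 932 TPM (median 44), a difference of 4.43. Some classical members did not pass in both fits. Cks2 differed by 3.76 without and 1.12 with covariates. Ccna2, the cyclin of S phase and G2, differed by 0.86, with medians of 19 TPM in the high-scoring and 31 TPM in the low-scoring cells. These 2 genes were picked out after their values were seen.

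In the spindle checkpoint and anaphase promoting complex list, 6 of 26 were higher in both fits (median difference 1.70, or 0.71 with covariates). Beside Ube2c and Mad2l1 they were Fbxo5 (3.97), which inhibits the complex before mitosis, Spag5 (2.79), Anapc5 (2.18) and Ccdc99, now Spdl1 (2.10). Of these, Anapc5 is a core subunit, with medians of 53 and 0 TPM. The call of Anapc5 was lost when any of 15 single cells was left out (lowest value 1.82), and that of Ccdc99 when any of 5 was (lowest 1.73). Among condensin, cohesin and mitotic chromatin genes, 6 of 28 were higher in both fits (median difference 1.89, or 1.52 with covariates). They were the condensin genes Smc2, Ncapg (4.64) and Smc4 (3.90), the chromatin proteins Hmgb2 (4.47) and Hmgn2 (2.82), and the histone variant H2afx (2.90). Hmgb2 ranged from 51 to 385 TPM in the high-scoring cells (median 144) and from 0 to 82 TPM in the low-scoring cells (median 5.5), and 11 high-scoring cells lay above every low-scoring cell.

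**Figure D5:**
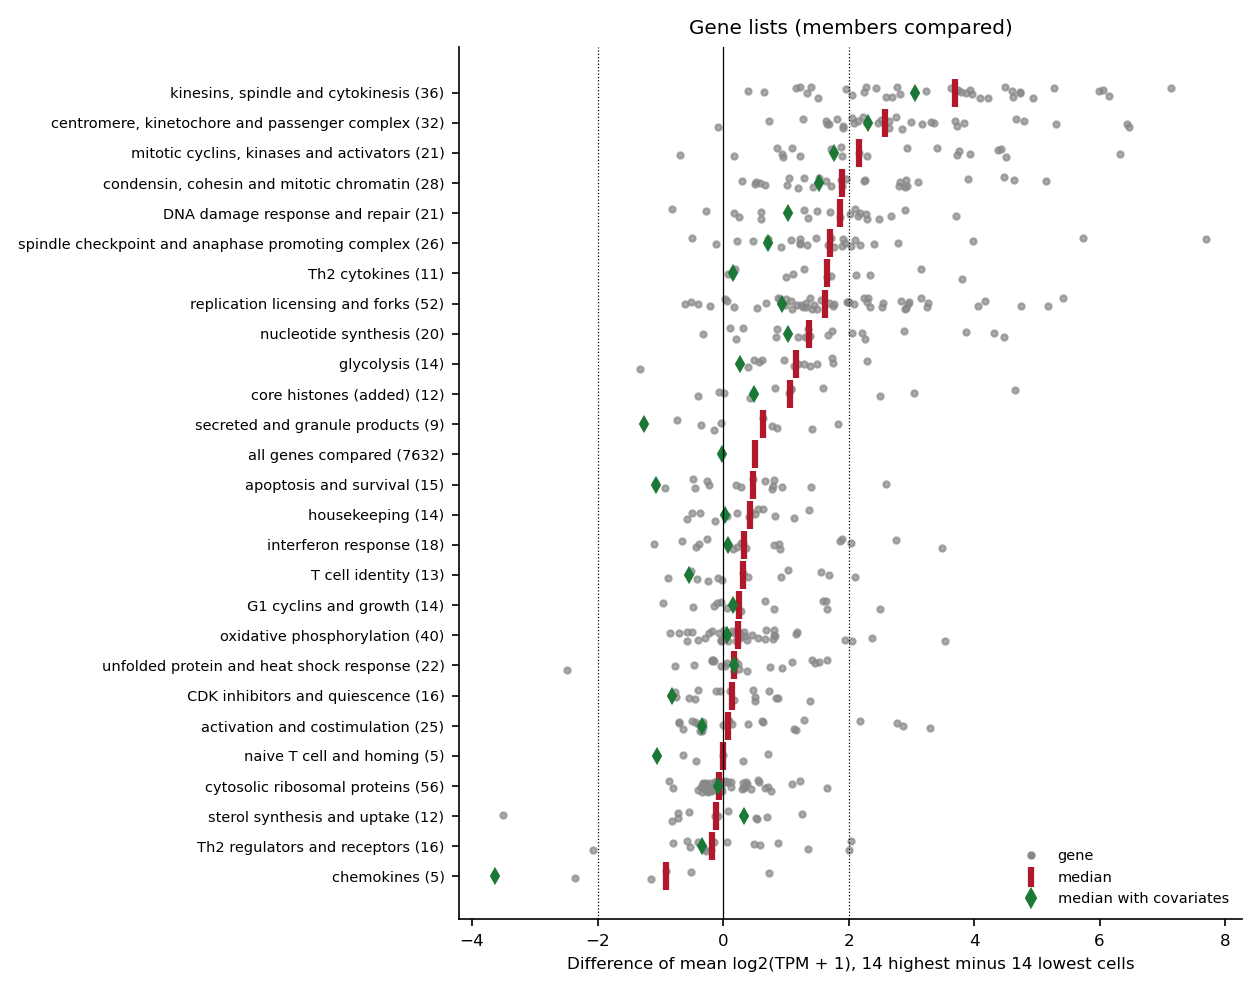
Difference of mean log2(TPM + 1), high-scoring minus low-scoring cells, for the members of each gene list that were compared (grey points, number in brackets), with the list's median (red bar) and its median with genes detected and set as covariates (green diamond); dotted lines mark 2 and -2. The 5 mitosis lists have red bars between 1.70 and 3.69, against 0.50 for all genes, and the green diamond of the Th2 cytokines lies near 0.

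DNA replication genes were higher on balance, but not in every set. Of 52 replication licensing and fork genes compared, 21 were higher by 2 or more and 12 in both fits, against 8.74% and 4.13% of all genes. The list's median difference was 1.62 (0.93 with covariates). The sliding clamp Pcna was abundant in both groups, at 52 to 1158 TPM (median 426) against 0 to 1361 TPM (median 156.5), a difference of 1.18. At the other end of the list, the helicase subunit Mcm7 had medians of 4 and 40 TPM and a difference of -0.61. Within sets T1 to T4 the list's median difference was 3.03, 2.83, 2.52 and 2.64, and within T5 it was -0.76. Of the 4 high-scoring cells of T5, 3 had low mean levels of the list on the log2(TPM + 1) scale. They were 1.75 in T5_5, 1.82 in T5_9 and 2.38 in T5_8, while T5_6 had 3.44. The 2 low-scoring cells of T5 lay far apart: T5_3, at the edge of its group, had 4.66. T5_1 had 1.28, below all 4 high-scoring cells of the set, so the T5 value leans on T5_3. Cell T5_5 also had the highest mitotic score of all. Across the groups the mean level ran from 1.75 to 5.84 in the high-scoring and from 0.41 to 4.66 in the low-scoring cells, so the groups overlapped widely. Among the 11 cells of shared genes detected, the median difference was 0.076, and without T5 it was 2.58. The part of set and of genes detected in this result was not tested.

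The related lists of nucleotide synthesis and repair had medians between those of mitosis and of all genes. Of all genes compared, 8.74% were higher by 2 or more and 4.13% in both fits. In nucleotide synthesis, 7 of 20 genes were higher by 2 or more and 3 in both fits (median difference 1.37, or 1.04 with covariates). Rrm1, the large subunit of ribonucleotide reductase, ranged from 9 to 657 TPM (median 235.5) against 0 to 342 TPM (median 1.5), and the groups overlapped (difference 4.47, or 4.53 with covariates). In DNA damage response and repair, 10 of 21 were higher and 6 in both fits (median 1.87, or 1.03 with covariates). Within T5 the repair list's median was 0.45, against 1.78 to 2.48 in the other 4 sets.

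Genes that hold cells out of the cycle or drive them through G1 did not differ by 2 in both fits. Of all genes compared, only 4.13% were higher and 0.17% lower in both fits. Of 16 CDK inhibitor and quiescence genes compared, none was higher or lower by 2 or more, against 8.74% and 0.301% of all genes. Lists this small cannot set such a count apart from those shares. The median difference was 0.14 (-0.81 with covariates). Cdkn1b, the CDK inhibitor p27, had medians of 11.5 and 4 TPM and was detected in 12 cells of each group (difference 0.17). Cdkn1a, the inhibitor p21, ranged from 0 to 1159 TPM (median 162) in the high-scoring and from 3 to 388 TPM (median 244) in the low-scoring cells, a difference of -0.04. The antiproliferative gene Btg1 had medians of 1112.5 and 1310.5 TPM. Of 14 G1 cyclin and growth genes, only the nucleolar methyltransferase Fbl passed 2 (2.50, but 1.86 with covariates), a share of 7.14% that is near that of all genes. Ccnd2, a D-type cyclin of G1, ranged from 241 to 2532 TPM (median 1098) against 272 to 2871 TPM (median 1263.5), a difference of -0.03. Myc, a driver of growth, had medians of 153.5 and 394 TPM (difference -0.96). These values overlapped between the groups in every case named.

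Th2 cytokines were higher in the high-scoring cells before the covariates entered and not after. All 11 cytokines had a difference above 0, as did 5385 of the 7632 genes compared, and 9 lay above the median of all genes. Their median was 1.66, and 4 passed 2, against 8.74% of all genes. With covariates the median was 0.16. None passed in both fits, against 4.13% of all genes, a share from which a list of 11 cannot be set apart. Il10, an anti-inflammatory cytokine, ranged from 10 to 3705 TPM in the high-scoring cells (median 901) and from 0 to 2276 TPM in the low-scoring cells (median 89.5), a difference of 3.81, or 0.06 with covariates. Il4, the defining Th2 cytokine, ranged from 5 to 12196 TPM (median 1069.5) against 0 to 1904 TPM (median 161.5), a difference of 3.15, or 0.91 with covariates. Il3, a growth factor of blood cells, had medians of 704.5 and 16 TPM (2.34, or 0.43 with covariates), and its single highest value, 80859 TPM, was in a low-scoring cell. Il5, the eosinophil growth factor, was detected in 4 high-scoring cells and 1 low-scoring cell (2.12, or 0.92 with covariates). Without T3_11 or T5_6 the value of Il5 was 1.43. That of Il3 was between 1.76 and 1.97 when any of 6 cells was left out. Il24 moved the other way between the fits, from 1.72 to 3.14, with medians of 1552 and 896 TPM. Il13, which acts on epithelium, was detected in 8 and 7 cells with a difference of 0.19.

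Th2 regulators and receptors showed no common direction. The median over 16 genes was -0.17 (-0.34 with covariates), with 7 above and 9 below 0. Gata3 ranged from 175 to 1665 TPM (median 824) in the high-scoring and from 253 to 2088 TPM (median 928.5) in the low-scoring cells, a difference of -0.27 against an SD over cells of 1.01 and 0.96. Ecm1, a secreted Th2 protein, had medians of 1200 and 1709 TPM (difference -0.57). Pparg, a nuclear receptor of Th2 cells, was higher in both fits, at 2.03 and 2.52, and was detected in 10 and 6 cells. Its difference fell below 2 when any of 16 single cells was left out, to 1.61 without T4_4. Irf4, a transcription factor induced by T cell receptor signals, was lower in both fits, at -2.08 and -3.47. It ranged from 0 to 573 TPM (median 16) in the high-scoring and from 0 to 799 TPM (median 105) in the low-scoring cells, so the groups overlapped. The value for Irf4 was between -1.77 and -1.99 when any of 12 cells was left out.

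The 13 genes lower in both fits formed no single list. The largest was Sc4mol (now Msmo1), a methylsterol oxidase of cholesterol synthesis, which ranged from 0 to 408 TPM in the high-scoring cells (median 1) and from 0 to 877 TPM in the low-scoring cells (median 264.5). Its difference was -3.51 (-3.34 with covariates), 4 low-scoring cells lay above every high-scoring cell, and the next lowest of the 12 sterol genes compared was Fdft1 at -0.81. Serpinb6b, a protease inhibitor, had medians of 1 and 86 TPM (-3.41), but 3075 TPM in the high-scoring cell T1_3. Tomm70a, a receptor of the mitochondrial import pore, had medians of 17 and 137.5 TPM (-2.88). Ddit3, the stress factor CHOP, was detected in 7 high-scoring and 10 low-scoring cells (-2.48), while the stress list as a whole had a median of 0.18. Dtwd2 (-2.58), the splicing regulator Rbm4 (-2.49), Pgrmc2 (-2.45) and the nucleolar protein Mphosph10 (-2.14) followed. The chemokine Ccl5 (-2.36) was detected in 1 high-scoring cell at 3 TPM and in 5 low-scoring cells, of which T2_8 held 29317 TPM. Without T2_8 its difference was -1.42, without T1_2 -1.79 and without T4_6 -1.92. Mphosph10 was between -1.75 and -1.98 when any of 7 cells was left out. The last 3, Crtc2 (-2.07), Crabp2 (-2.06) and Sytl3 (-2.05), fell short of -2 when any of 12, 14 or 16 cells was left out, and were then at most -1.67, -1.74 and -1.64.

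Without covariates, lists with no direct link to division were mostly near the median of all genes. The 5 chemokine genes compared lay furthest below that median of 0.50, at -0.91, or -3.64 with covariates. The 56 cytosolic ribosomal protein genes had a median difference of -0.07. None passed 2 in either direction, against 8.74% of all genes higher and 0.301% lower. For the lower direction, a count of none does not set the list apart from that share. Rpl32, the most abundant of them, had medians of 5549.5 and 5702 TPM. The 40 oxidative phosphorylation genes had a median of 0.23, with 1, Ndufs1, higher in both fits (3.53), against 4.13% of all genes. Glycolysis lay furthest above it among the lists of this paragraph, with a median of 1.16, or 0.26 with covariates. Its most abundant gene, Aldoa, had medians of 2249 and 2093 TPM. The activation and costimulation list had a median of 0.09, with Tnfrsf4, the receptor OX40, at medians of 9163 and 7194.5 TPM. T cell identity (0.31), housekeeping (0.43), apoptosis and survival (0.48) and the granule and other secreted products (0.64) also had medians close to that of all genes. With covariates these medians were -0.55, 0.03, -1.06 and -1.26, in the same order, against -0.02 for all genes, so not all of them stayed close to it.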

How the data were processed

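Single-cell RNA-seq libraries of 56 Th2 cells were analysed. The deposited values are TPM in whole numbers: each column adds up to between 999202 and 999914, so the authors rounded it. A rounded TPM is no longer exact, so the deposited unit was recorded as a score, which is distinct from the mitotic score computed here. The build was mm9 and the tools FastQC, Bowtie 0.12.2 and Cufflinks, per the submitters' processing notes, with no step assigned to a tool. The table held 10565 genes, each at 5 TPM or more in at least 1 cell, and 55.4% of values were 0. Depth is unknown, and a 0 can be a transcript lost in capture.

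The cells, gene lists and rules were chosen with earlier results of these data known. Groups were the 14 highest and 14 lowest of 54 cells by score, as the report states. Values were taken as log2(TPM + 1), a pseudocount of 1. For each of 7632 genes detected (1 TPM or more) in at least 10 cells, the difference of group means was computed in Python 3.11.15 with numpy 2.4.6 and pandas 2.3.3, and again as a least-squares group term with genes detected and set as covariates. A difference of 2 was called. The script was tested on simulated data.

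Of 31 gene lists, 26 with at least 3 members compared were described. Core histones were added after the data were seen. Named genes were the 15 largest higher and 10 largest lower in both fits, the score genes, mitosis-list members higher or lower in both fits, the extremes and the highest mean of every other list, 4 lists in full, and markers of other cell types by counts. The result of 1 gene is not reported here. Genes named beyond that rule (Crtc2, Crabp2, Sytl3, Fdft1, Ccna2, Cks2 and Cd3d, Cd4) were picked with their values or as cell markers. Of the table's symbols, 9501 were current in the GRCm38.p6 annotation, 949 were older names and 115 were not matched. That build differs from mm9, so it gave names and promoter sequences only. Alternatives covered the pseudocount, detection filter, group size, ranking within sets, covariates, shared genes detected, medians, rescaling, sets and single cells left out. The pool was not analysed here.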

Additional observations from a re-analysis of the deposited data

How the results depend on the processing

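The counts of called genes depended on the scale. The number higher, 667, was 84 with a pseudocount of 10, 428 with 18 cells per group, 1336 with a difference of medians and 313 centred on the median of all genes. The number lower, 23, was 2 with a pseudocount of 10, 73 with 10 and 8 with 18 cells per group, 138 with medians, 97 centred, 11 without each gene's highest cell and 44 without T3_3 and T4_3, the cells with fewest genes. It was 579 with genes detected and set as covariates, 495 with genes detected alone and 794 in the shared range of genes detected. Without set T1, T2, T3, T4 or T5 it was 48, 48, 65, 72 or 57. The number higher in both fits, 315, was 52 with a pseudocount of 10. The number lower in both, 13, was 2 with that pseudocount, 52 with 10 and 7 with 18 cells per group, 534 in the shared range, and 28, 35, 45, 56 or 34 without T1 to T5 in turn. It was 36 without T3_3 and T4_3.

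Leaving out 1 cell at a time gave 614 to 756 higher, 22 to 38 lower, 300 to 356 higher in both and 12 to 25 lower in both. The lower count passed 1.5 times its value without T3_3 (38) or T3_1 (37). The count lower in both did so without T3_3, T1_7, T3_1 or T4_3 (25 each), T5_3 or T4_7 (24), T2_9, T3_11, T2_8 or T5_1 (22), T4_5 (21), and T1_3, T2_5, T1_4 or T3_12 (20).

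The median difference of the mitosis lists, 2.24, was 1.10 with a pseudocount of 10, 2.77 with medians and 1.74 centred, and 2.14 to 2.38 with 1 cell left out. That of the replication list, 1.62, was 0.076 in the shared range and 1.38 to 1.92 with 1 cell left out. The cause of these shifts was not tested. Of the 176 named genes, 93 differed by 2 or more, and of their 2025 values over 22 alternatives 3 had the opposite sign: Il3 was -0.79 with genes detected as covariate and -0.48 in the shared range, and Eno1 was -0.91 there. Of the 83 named genes short of 2, 60 had the opposite sign under at least 1 alternative (199 values), so their directions are not stable. Of 65 mitosis genes higher in both fits, 33 stayed at 2 or more under every alternative that gave them a value, and 1410 of their 1412 values were above 0. For several named genes the difference fell short of 2 without any 1 of the following cells: for Ccl5 (-1.92 to -1.42) T1_2, T2_8 or T4_6; for Anapc5 (1.82 to 1.98) T5_5, T2_9, T4_4, T3_4, T1_1, T5_9, T1_2, T3_3, T1_4, T1_7, T2_8, T3_12, T4_3, T4_7 or T5_1; for Ccdc99 (1.73 to 1.97) T2_9, T3_11, T4_5, T3_4 or T1_1; for Il3 (1.76 to 1.97) T3_11, T2_10, T5_8, T4_11, T2_3 or T4_3; for Il5 (1.43 to 1.71) T5_5, T3_11, T5_6 or T5_9. For Pparg (1.61 to 1.97) they were T3_11, T4_4, T5_6, T3_4, T5_9, T5_8, T4_11, T4_8, T5_3, T1_2, T1_4, T2_8, T3_1, T3_12, T4_3 or T4_6. For Irf4 (-1.99 to -1.77) they were T4_4, T2_10, T3_4, T1_1, T1_3, T5_9, T1_2, T3_3, T2_8, T4_3, T4_6 or T5_1, and for Mphosph10 (-1.98 to -1.75) T4_4, T2_10, T3_4, T1_1, T4_11, T3_3 or T1_7. Scaling each score gene to its own SD chose the same 28 cells, and ranking within sets shared 12 and 13. No paired analysis was possible because the labels name no partner for any cell, and the number in a cell's title is only its position within a set. Every set held cells of both groups, and with set as covariate 725 genes were higher and 26 lower. Unknown depth limits every value of 0.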

Other observations

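Of the 315 genes higher in both fits, 250 were outside the mitosis lists, and a few of those are described here. The core histone Hist1h4d ranged from 8 to 1280 TPM in the high-scoring cells (median 272) and from 0 to 1067 TPM in the low-scoring cells (median 4), a difference of 4.65, or 3.39 with covariates. It was the 1 gene higher in both fits among 12 core histone genes compared, or 8.33%, against 4.13% of all genes. That list was added after the data were seen, and its median difference was 1.07. Most replication-dependent histone transcripts lack a poly(A) tail, and near-identical copies make their levels uncertain. Usp18, which restrains interferon signalling, was detected in 6 high-scoring cells, at 66 to 2312 TPM, and in 1 low-scoring cell at 4 TPM (3.49), while the interferon response list had a median of 0.34. Tnfsf11, the cytokine RANKL, had medians of 418 and 44 TPM (3.30).

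The 26 cells between the groups were intermediate in mitosis transcripts. They had 48 to 105 of the 142 mitosis-list genes detected (median 73.5), overlapping both groups. In T3_7, for example, the mean over these genes was 4.08 on the log2(TPM + 1) scale at a mitotic score of 3.14, and in T5_10 it was 4.16 at 3.81. The high-scoring cells ranged from 3.30 to 5.14 on the same scale.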
